A study of Arabidopsis thaliana with 12 samples.

Results

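Gene expression in hda9-1 seedlings was compared with that in wild-type seedlings of Arabidopsis thaliana, both without abscisic acid (ABA). The 6 samples of this comparison were those whose titles and data columns give them as untreated, 3 of hda9-1 and 3 of wild type Col-0, out of 12 in the series. All 23911 genes of the count table were considered. The other 6 samples were hda9-1 and wild-type seedlings 4 h after a spray with 50 µM ABA, and they entered the fit and the comparison at the end. Seedlings of both genotypes were 2 to 3 weeks old and had been kept at 20 °C in days of 16 h light and 8 h dark, on plates containing 1% sucrose. Poly(A) RNA from whole seedlings was sequenced with 75 bp reads. The mutant is 1 allele in the Col-0 background, and whole seedlings mix roots and shoots. In such bulk RNA, fewer cells of a type and less RNA per cell cannot be told apart. The titles number 3 biological replicates in a group and do not tell whether these were grown separately. The p-values thus reflect sample-to-sample spread, which may be technical.

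HDA9 is a histone deacetylase, an enzyme that removes acetyl groups from histones and is mostly associated with lower transcription of its target genes. In Arabidopsis it works with the SANT-domain protein POWERDRESS (PWR) and the WD40-repeat protein HOS15, and it is known for roles in flowering time, leaf ageing, seed dormancy, growth in warmth and responses to ABA. The series title concerns redox systems of mitochondria and chloroplasts, so the redox gene families are described one by one below.

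The libraries held 43977412 to 49448146 counts in hda9-1 and 45176609 to 52820930 in wild type. Principal component 1 (46.1% of variance) separated the genotypes, with scores of -15, -32.3 and -55.3 for hda9-1 replicates 1, 2 and 3 and of 29.4 to 38.1 for wild type. The hda9-1 replicate 3 library lay farthest out. The treatment field of the labels gives ABA for all hda9-1 samples and none for all wild-type samples, against the titles. Summed levels of 27 ABA-induced genes were 879 to 1041 CPM (read counts scaled to a common library size) in the hda9-1 samples titled without ABA, against 8949 to 11440 CPM in those titled with ABA, and all 27 genes separated the 2 sets without overlap. Root marker sums were lower in hda9-1. Those of 8 root hair genes were 65.7, 44.9 and 19.2 CPM in hda9-1, against 94.6, 142 and 95.4 CPM in wild type, and those of 13 endodermis and root meristem genes were 111 to 116 CPM in hda9-1, against 137 to 144 CPM in wild type. Sums of 12 stomatal lineage genes were 91.9, 85.8 and 84.9 CPM in hda9-1, against 105.3, 97.7 and 104.5 CPM in wild type, and the share of counts on chloroplast genes was 0.0981%, 0.0845% and 0.0756% in hda9-1, against 0.154%, 0.173% and 0.105% in wild type. None of these measures overlapped between the genotypes, and the part of these differences in the results below was not tested. Sums of 57 photosynthesis genes overlapped between the genotypes, at 107000 to 136400 CPM in hda9-1 and 119100 to 136100 CPM in wild type, and floral markers reached at most 7.68 CPM in sum.

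HDA9 itself was lower in all 3 mutant samples. The gene (AT3G44680, chromosome 3, 16226519 to 16230009, minus strand, TAIR10.1) had 5.87, 5.45 and 4.72 CPM in hda9-1, against 17.1, 16.0 and 15.7 CPM in wild type. The groups were far apart relative to the spread within them, with means of 5.34 ± 0.583 and 16.2 ± 0.721 CPM for hda9-1 and wild type (SD, n = 3 each). The log2 fold change was -1.60 ± 0.12 (SE), with an adjusted p of 1.2e-05 by edgeR's quasi-likelihood test with Benjamini-Hochberg adjustment, which is the test behind every adjusted p given here. The partial copy HDA17 is 98.4% identical to HDA9 over 667 bases, so reads of the 2 could be exchanged. Of the 5 tested neighbours within the annotated stretch around HDA9, AT3G44620 was called, at 0.33 ± 0.09 (adjusted p = 0.027), and AT3G44630, AT3G44670, AT3G44690 and AT3G44700 were not.

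Among genes of the deacetylase machinery, those of both partner proteins were higher in the mutant. PWR (AT3G52250) had 234, 212 and 227 CPM in hda9-1, against 136, 125 and 110 CPM in wild type, a log2 fold change of 0.86 ± 0.10 (adjusted p = 0.00023). HOS15 (AT5G67320) had 82.9, 90.7 and 100.2 CPM in hda9-1, against 73.0, 69.6 and 68.7 CPM in wild type, a change of 0.37 ± 0.08 (adjusted p = 0.0072). For both genes every mutant sample lay above every wild-type sample, and both stayed called when any 1 of the 12 libraries was dropped. Of the 17 tested members of the list of histone deacetylases and HDA9 partners, 4 were called higher and 1, HDA9, lower. The other 2 that rose were the deacetylase genes HDA14 (AT4G33470) by 0.41 ± 0.10 and HDA8 (AT1G08460) by 0.29 ± 0.09. Without hda9-1 replicate 2 or wild-type replicate 2 only 2 members were called higher, and HDA14 then had an adjusted p of 0.050. The class I genes HDA6 and HDA19 were at -0.04 and -0.05 and were not called.

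**Figure D1:**
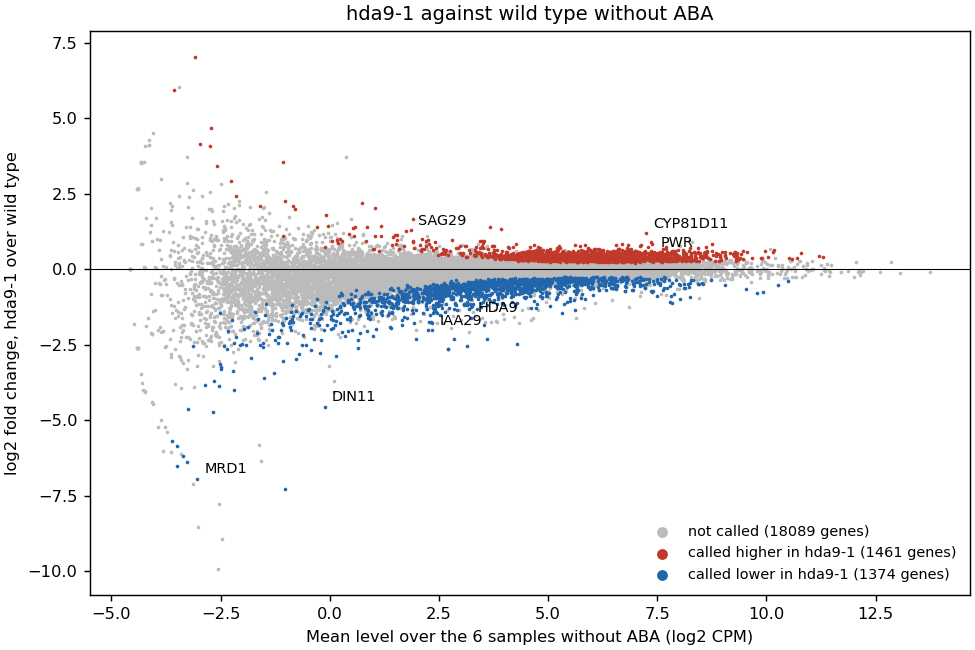
Each point is 1 of 20924 tested genes, by its mean level over the 6 samples without ABA (log2 CPM) and its log2 fold change of hda9-1 over wild type. Red points (1461) were called higher in hda9-1 and blue points (1374) lower, at an adjusted p below 0.05, and the blue points reach larger changes among genes of middle and low level.

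In all, 2835 of 20924 tested genes (13.5%) were called, 1461 higher (6.98%) and 1374 lower (6.57%). The counts given for gene lists are to be read beside these shares over all tested genes. Increases were smaller than decreases, the median log2 value being 0.41 for genes called higher and -0.64 for genes called lower, against -0.04 over all tested genes. At 2-fold or more, 36 genes were higher (0.172%) and 327 lower (1.56%), of which 6 and 113 had at least 5 CPM in the group with the higher level. The samples of the 2 genotypes did not overlap at 7647 tested genes (36.5%), 3555 higher (17%) and 4092 lower (19.6%), and at 2798 of the genes called. Scaling by library size alone kept the number of calls at 2790 but split them into 980 higher and 1810 lower. The number of calls fell to 1669 without hda9-1 replicate 2, 1540 without hda9-1 replicate 3, 1752 without wild-type replicate 1, 1382 without wild-type replicate 2 and 1576 without wild-type replicate 3. The genes lower by 2-fold or more then numbered 173 without hda9-1 replicate 3 and 181 without wild-type replicate 2, and 984 genes (34.7%) were called in every fit that dropped 1 library.

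The largest increases, among called nuclear genes whose samples did not overlap and whose higher genotype averaged 5 CPM or more, included those of an F-box gene, a pyruvate kinase family gene, a sugar transporter gene, a disease resistance family gene and detoxification genes. The F-box gene AT5G56370 had 5.12, 6.78 and 7.91 CPM in hda9-1, against 2.11, 2.31 and 1.86 CPM in wild type (log2 fold change 1.66 ± 0.24, adjusted p = 0.00078). SAG29 (AT5G13170), a SWEET-family sugar transporter gene named for its rise in ageing leaves, had 5.19, 5.49 and 6.26 CPM in hda9-1, against 2.18, 2.31 and 2.38 CPM in wild type (1.304 ± 0.19). CYP81D11 (AT3G28740), a cytochrome P450 gene known to respond to foreign chemicals, had 207, 222 and 264 CPM in hda9-1, against 92.1, 113 and 97.7 CPM in wild type (1.19 ± 0.12, adjusted p = 0.00012). In each of these 3 genes every mutant sample lay above every wild-type sample, as the rule that picked them required. Each stayed called in all 12 fits that dropped a library.

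DOGT1 (UGT73C5, AT2G36800), a glucosyltransferase gene whose product can inactivate foreign compounds and brassinosteroids, had 15.4, 29.2 and 30.9 CPM in hda9-1, against 5.76, 13.0 and 11.4 CPM in wild type (1.32 ± 0.30, adjusted p = 0.015). The pyruvate kinase family gene AT3G49160 had 27.7, 24.6 and 13.2 CPM in hda9-1, against 12.1, 6.91 and 5.60 CPM in wild type (1.41 ± 0.31, adjusted p = 0.013). In both genes the replicates were spread widely, and neither call held for every left-out library: DOGT1 had an adjusted p of 0.055 without hda9-1 replicate 3, and AT3G49160, whose exons overlap those of AT3G49155, had 0.056 without wild-type replicate 2. The disease resistance family gene AT1G58848 (1.27 ± 0.38) is 99.3% identical to AT1G59218 over 3645 bases, and its change was 0.80 without hda9-1 replicate 1. Its call was lost without 6 of the 12 libraries. The remaining 6 of the 12 largest increases lay between 0.95 and 1.00 and included CRF5 (AT2G46310), a cytokinin response factor, with 5.72, 6.73 and 6.78 CPM in hda9-1, against 3.55, 3.53 and 2.85 CPM in wild type. In all, 7 of the 12 stayed called in every fit that dropped 1 library.

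Among the largest decreases were genes of cell walls, defence and auxin response. IAA29 (AT4G32280), an early auxin-response gene, had 2.85, 2.46 and 2.33 CPM in hda9-1, against 12.8, 8.59 and 9.24 CPM in wild type (-2.01 ± 0.18, adjusted p = 3.4e-05). The uncharacterised gene AT4G13575 had 4.50, 3.24 and 2.15 CPM in hda9-1, against 16.2, 16.3 and 16.0 CPM in wild type (-2.29 ± 0.26), and AT5G26270, also uncharacterised, had 1.26, 2.07 and 1.97 CPM in hda9-1, against 8.38, 8.02 and 10.1 CPM in wild type (-2.32 ± 0.32). In all 3 genes the genotypes were far apart.

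The extensin-like cell wall gene AT1G26250, which overlaps AT1G26255, had 10.6, 12.2 and 3.91 CPM in hda9-1, against 34.4, 54.1 and 60.5 CPM in wild type (-2.49 ± 0.52, adjusted p = 0.016). The lipid-transfer family gene AT4G12490, which overlaps AT4G12495, had 4.402, 3.63 and 4.01 CPM in hda9-1, against 7.87, 36.6 and 25.5 CPM in wild type (-2.54 ± 0.45). For the lipid-transfer gene the mutant samples were alike and the wild-type samples were not, with wild-type replicate 1 nearest to the mutant. Wild-type replicate 1 was also nearest to the mutant for the glutathione transferase gene GSTF6 (AT1G02930), with 7.27, 6.37 and 4.05 CPM in hda9-1, against 12.3, 47.7 and 26.8 CPM in wild type (-2.29 ± 0.54, adjusted p = 0.026). Among genes picked by the rule given for the increases, the largest fitted decrease was that of DIN11 (AT3G49620, a dark-inducible oxygenase gene), at -4.56 ± 1.19. It came with 0.620, 0.0460 and 0.221 CPM in hda9-1, against 0.793, 2.65 and 17.9 CPM in wild type. Without wild-type replicate 3 it was -2.51 with an adjusted p of 0.071, and the call was lost without 8 of the 12 libraries, all 3 hda9-1 replicates and 4 ABA-treated samples among them. Of the 12 largest decreases 6 were called whichever library was left out, while GSTF6 and the root hair gene RHS12 (AT3G10710) were each lost without 5 of the 12 libraries.

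**Figure D2:**
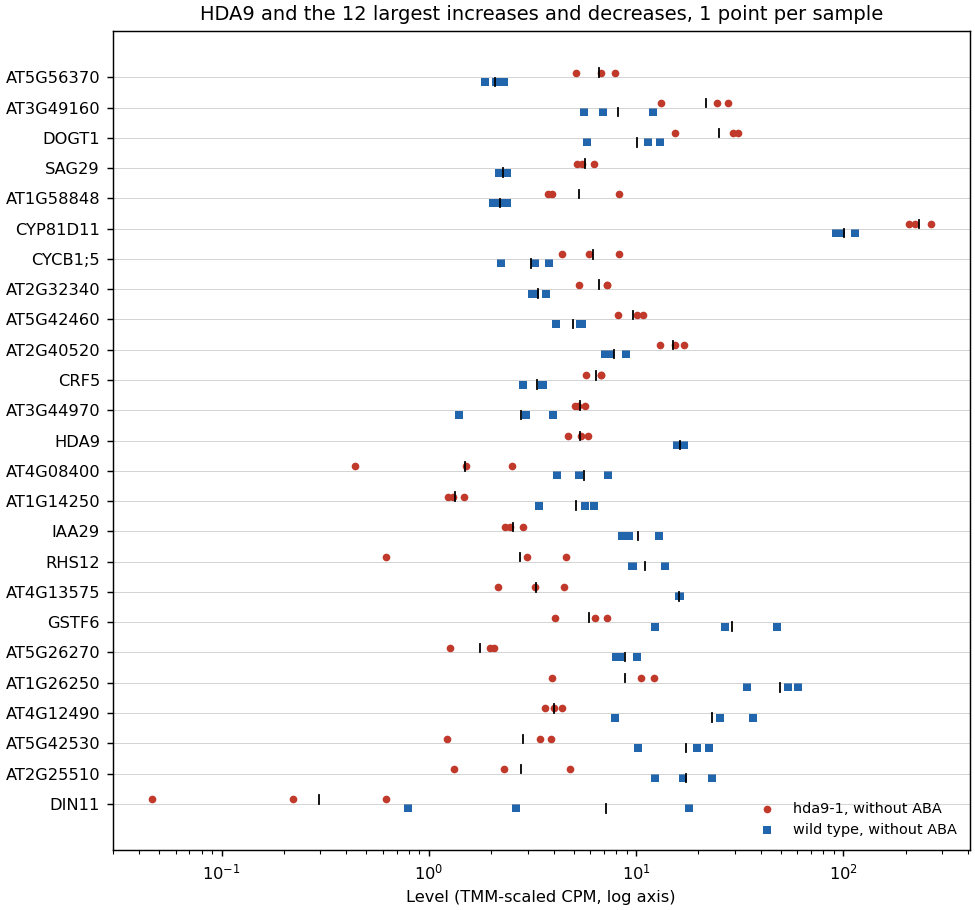
Levels (CPM, log axis) of HDA9 and of the 12 largest increases and 12 largest decreases in each sample, with hda9-1 above wild type in each row. The 3 mutant samples lie apart from the 3 wild-type samples in every row, which the rule that picked the largest increases and decreases required. The wild-type samples of DIN11 range from 0.793 to 17.9 CPM.

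Circadian clock genes are expressed in daily waves, with CCA1 and PRR9 early in the day and GI, PRR5, FKF1 and ELF3 later, and the hour of harvest was not given in the sources used here. Of 21 clock genes, 5 were higher (23.8%, against 6.98% of all tested genes) and 2 lower (9.52%, against 6.57%). Their median exon length was 2667 bases, against 1766 over all tested genes. The promoters of the called clock genes are of interest because 2 known elements, the evening element and the G-box, occur in clock promoters. The 250 bases before the annotated gene start (TAIR10.1) are shown for the 4 of 7 that held a searched motif, 5′ to 3′ in the direction of the gene, with capitals marking the evening element AAATATCT, the G-box CACGTG or the W-box TTGACC on either strand.
PRR5 (chr5:8358547-8358796, minus strand): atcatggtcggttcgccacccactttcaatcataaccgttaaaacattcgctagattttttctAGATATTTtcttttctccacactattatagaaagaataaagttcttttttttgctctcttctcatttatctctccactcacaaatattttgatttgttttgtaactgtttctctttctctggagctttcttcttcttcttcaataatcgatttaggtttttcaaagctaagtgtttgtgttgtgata
FKF1 (chr1:25508389-25508638, plus strand): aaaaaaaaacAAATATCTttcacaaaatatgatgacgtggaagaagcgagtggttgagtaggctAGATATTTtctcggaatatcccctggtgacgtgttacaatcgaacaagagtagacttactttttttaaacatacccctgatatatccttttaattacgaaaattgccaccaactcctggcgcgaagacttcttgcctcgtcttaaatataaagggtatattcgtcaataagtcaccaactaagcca
PRR9 (chr2:19232357-19232606, plus strand): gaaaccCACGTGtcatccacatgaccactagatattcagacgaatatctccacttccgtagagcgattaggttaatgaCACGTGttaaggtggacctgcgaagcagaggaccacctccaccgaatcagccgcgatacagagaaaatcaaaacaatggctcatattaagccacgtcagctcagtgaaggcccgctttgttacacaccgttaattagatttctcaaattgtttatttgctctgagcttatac
CCA1 (chr2:19245341-19245590, plus strand): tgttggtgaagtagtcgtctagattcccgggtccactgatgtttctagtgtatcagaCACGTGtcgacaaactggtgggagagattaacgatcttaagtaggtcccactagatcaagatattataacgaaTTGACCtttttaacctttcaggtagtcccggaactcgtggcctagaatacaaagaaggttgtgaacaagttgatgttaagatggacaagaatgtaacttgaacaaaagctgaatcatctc
PRR5 held 1 evening element and FKF1 2, PRR9 held 2 G-boxes, and CCA1 held 1 G-box and 1 W-box, none of which overlapped. The windows of ZTL, ELF3 and GI held none of these letters. Over all called genes the evening element was in 6.99% of windows of genes called higher and 5.2% of those called lower, against 4.97% of all tested genes. The G-box was in 6.58% of windows of genes called higher and 7.77% of those called lower, against 7.34% of all, and the W-box in 13.0% and 12.4%, against 12.2%.

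GI (AT1G22770), a large plant-specific protein of the clock and of day-length sensing, had 334, 323 and 297 CPM in hda9-1, against 250, 235 and 218 CPM in wild type (0.44 ± 0.11, adjusted p = 0.016). ELF3 (AT2G25930), a component of the repressive evening complex, had 177, 177 and 209 CPM in hda9-1, against 145, 134 and 122 CPM in wild type (0.49 ± 0.12). ZTL (AT5G57360) and FKF1 (AT1G68050), related blue-light receptors that mark clock and flowering proteins for breakdown, rose by 0.40 ± 0.09 and 0.53 ± 0.15, and PRR5 (AT5G24470), a transcriptional repressor, by 0.34 ± 0.09. Of the morning genes, CCA1 (AT2G46830) had 3.99, 3.06 and 5.06 CPM in hda9-1, against 5.64, 5.67 and 6.62 CPM in wild type (-0.56 ± 0.18, adjusted p = 0.047). PRR9 (AT2G46790), which shares 440 bases at 99.3% identity with AT2G46670, had 13.5, 10.2 and 10.2 CPM in hda9-1, against 14.2, 16.0 and 14.7 CPM in wild type (-0.41 ± 0.13). The genotypes did not overlap in any of these, but differences were small: without wild-type replicate 3, 1 clock gene was called higher, and without hda9-1 replicate 2, hda9-1 replicate 3 or wild-type replicate 2, 2 were. Without hda9-1 replicate 1, 3 were called higher. Neither decrease was called without any 1 of hda9-1 replicate 2, wild-type replicates 1, 2 and 3, hda9-1 ABA replicate 3 or the 3 ABA-treated wild-type replicates, and 1 was called without hda9-1 replicate 3. Scaling by DESeq2-type size factors (RLE), limma-voom and the replicate block each left 0 clock genes called lower.

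Among 23 flowering-time genes, 1 was called, as higher (4.35%, against 6.98% of all tested genes). SOC1 (AT2G45660), a MADS-box integrator that promotes flowering, had 47.4, 41.9 and 49.9 CPM in hda9-1, against 34.1, 27.0 and 28.7 CPM in wild type (0.63 ± 0.13, adjusted p = 0.0048), a rise in every mutant sample called in every fit that dropped 1 library. AGL19, known as an HDA9 target, was at 0.32 ± 0.32 and was not called. FT and FLC, at levels under 1 CPM, were at 2.05 ± 0.72 and -1.13 ± 0.62 and were not called.

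Genes of auxin synthesis and response, many of which act downstream of the light- and warmth-responsive PIF factors, were lower in the mutant. Of 27 tested, 8 were called lower (29.6%) and none higher, and 24 had a fold change below 0, with a median of -0.39 against -0.04 over all tested genes. IAA3 (SHY2, AT1G04240), an auxin-response repressor, had 17.1, 17.42 and 14.1 CPM in hda9-1, against 30.5, 23.61 and 27.1 CPM in wild type (-0.74 ± 0.13, adjusted p = 0.0021). The auxin synthesis genes YUC9 (AT1G04180) and YUC8 (AT4G28720) fell by 0.82 and 0.57 on the log2 scale, with 6.72, 5.47 and 4.32 CPM of YUC8 in hda9-1, against 8.54, 6.49 and 9.52 CPM in wild type. Wild-type replicate 2 of YUC8 lay within the range of the mutant samples. Also lower were IAA29, IAA14, GH3.3, HB2 and SAUR22, while PIF4 itself was at -0.10 ± 0.10. IAA3 shares 491 bases of exon with AT1G04230. The number called lower was 2 without hda9-1 replicate 3, 3 without wild-type replicate 1 or 3, and 4, 4 and 5 without ABA-treated wild-type replicates 1, 2 and 3.

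The longest run of neighbouring called genes was a block of 6 jacalin-related lectin genes on chromosome 3 (5579290 to 5599224, TAIR10.1), all lower in hda9-1. Jacalin-related lectins bind sugars, and PBP1 (AT3G16420) is known from the complexes in which myrosinases break down glucosinolates. PBP1 had 193, 199 and 165 CPM in hda9-1, against 312, 358 and 422 CPM in wild type (-0.97 ± 0.12, adjusted p = 0.00028). JAL34 (AT3G16460) had 242, 225 and 205 CPM in hda9-1, against 413, 413 and 434 CPM in wild type (-0.91 ± 0.10), and JAL33 (AT3G16450) had 21.7, 13.4 and 15.7 CPM in hda9-1, against 40.6, 36.8 and 47.1 CPM in wild type (-1.29 ± 0.15). In all 3 the genotypes were far apart, and they and JAL31 (-0.92 ± 0.20) stayed called in every fit that dropped 1 library. MLP-300B (-0.67 ± 0.18) and JR1 (-0.76 ± 0.19) lost theirs without hda9-1 replicate 2, hda9-1 replicate 3, wild-type replicate 1 or wild-type replicate 3. JAL34 and JR1 share 631 bases of exon, so their counts are not independent.

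There were 22 runs of at least 3 neighbouring genes called the same way, 11 higher and 11 lower, holding 69 genes. Only the run with HTA4, described next, kept all its genes called in every fit that dropped 1 library. Several runs kept none. On chromosome 4 (7884516 to 7893761), the histone H2A gene HTA4 (AT4G13570) and its neighbours AT4G13572 and AT4G13575 were lower by 2.62, 2.33 and 2.29 on the log2 scale. HTA4 had 0.992, 0.368 and 0.542 CPM in hda9-1, against 4.74, 3.99 and 3.03 CPM in wild type, and all 3 genes stayed called in every fit that dropped 1 library. A run on chromosome 1 included GLP4 (AT1G18970), a germin-like protein gene, with 2.19, 1.91 and 1.204 CPM in hda9-1, against 5.53, 6.17 and 5.34 CPM in wild type (-1.69 ± 0.26). GLP4 and 1 neighbour, 2 of the 3 genes of that run, stayed called in every fit that dropped 1 library. A further run on chromosome 1 held MRD1 (AT1G53480), with 0 counts in hda9-1 and 47 in wild type summed over 3 samples each. With 3 counts over the group in place of 0, MRD1 was 14.9-fold lower, and the 95% counting interval of the fold started at 11.6. The exons of MRD1 overlap those of HEI10 (AT1G53490), which was -1.05 ± 0.33. Of the 3 genes of this run, MRD1 alone stayed called in every fit that dropped 1 library.

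Other defence genes were also lower, while 4 immune receptor genes were called higher. Of 23 NLR receptor genes, which encode intracellular immune receptors, 4 rose and 1 fell, with a median of 0.01 over the list. Over all tested genes 6.98% were called higher and 6.57% lower. The median exon length of the list was 3957 bases, against 1766 over all tested genes. In the longest of 4 equal groups of genes by exon length, 12% were called higher. After ABA, 1 member of the list was called higher and 4 lower. RPP5 (AT4G16950), a receptor gene of downy mildew resistance, had 279.9, 239.6 and 246 CPM in hda9-1, against 183, 190.3 and 168 CPM in wild type (0.50 ± 0.08, adjusted p = 0.0018), and its neighbour of the same cluster SNC1 (AT4G16890) rose by 0.40 ± 0.11. SNC1 shares 423 bases at 95.3% identity with the cluster member AT4G16860, and RPP5 shares 521 bases of exon with the overlapping AT4G16955. ZAR1 (0.28) and ADR1-L2 (0.37) completed the increases, and AT5G66910 (NRG1.2), a helper receptor, fell by 0.50. Without hda9-1 replicate 1 or wild-type replicate 2 or 3, 1 receptor gene was called higher, and without hda9-1 replicate 2, hda9-1 replicate 3 or wild-type replicate 1, 2 were, RPP5 among them each time.

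Of 21 jasmonate genes 3 were lower (14.3%, against 6.57% of all tested genes) and none higher. OPR3 (AT2G06050), an enzyme of jasmonate synthesis, had 9.18, 9.45 and 8.21 CPM in hda9-1, against 18.6, 15.3 and 18.7 CPM in wild type (-0.97 ± 0.13, adjusted p = 0.00064). AOC3, another synthesis enzyme, was -0.78 ± 0.17, and JAZ1, a repressor of the pathway, -0.69 ± 0.16. All 3 stayed called in every fit that dropped 1 library, and 6 were called lower without hda9-1 replicate 1. Of 20 salicylic acid and camalexin genes 4 were lower, CYP71A13 (camalexin synthesis, -3.42 ± 0.60), PAD4 (-0.56), EDS1 (-0.32) and ALD1 (-1.46). Without any 1 of hda9-1 replicates 2 and 3 and the 3 wild-type replicates, 1 was called lower. CYP71A13 shares 332 bases of exon with AT2G30766. Of 16 glucosinolate genes 4 were lower, BCAT4 (-0.80), CYP83A1 (-0.58), TGG2 (-0.63) and CYP79B2 (-0.55), and 2 without hda9-1 replicate 2 or 3 or wild-type replicate 1.

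Of 20 leaf senescence genes, 2 were called higher (10%, against 6.98% of all tested genes) and 3 lower (15%, against 6.57%). SAG29, described above, and the autophagy gene ATG9 (AT2G31260, 0.34 ± 0.11) rose, while ORE1 (AT5G39610), a NAC factor that promotes leaf ageing, had 6.99, 5.61 and 5.28 CPM in hda9-1, against 11.4, 10.3 and 8.80 CPM in wild type (-0.77 ± 0.14, adjusted p = 0.0028). WRKY53 (-1.38) and SAG13 (-3.59) also fell. ATG9, WRKY57 and NPX1 are known as genes that HDA9 and PWR repress in ageing leaves, and here WRKY57 was 0.31 ± 0.15 and NPX1 0.25 ± 0.10, neither called. The ATG9 call was lost without hda9-1 replicate 1 or 2, any 1 of the 3 wild-type replicates or any 1 of the 3 ABA-treated wild-type replicates, and with upper-quartile or library-size scaling. WRKY53 and SAG13 lost their calls without hda9-1 replicate 2 or 3 or wild-type replicate 1 or 2, and SAG13 also without wild-type replicate 3, hda9-1 ABA replicate 1 or wild-type ABA replicate 3.

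The redox families were split. NADPH oxidases make superoxide at the cell surface, and all 8 tested had a fold change below 0, with 5 called lower and a median of -0.67. RBOHG (AT4G25090) had 12.1, 9.33 and 7.67 CPM in hda9-1, against 21.5, 21.2 and 21.4 CPM in wild type (-1.14 ± 0.16, adjusted p = 0.00064). RBOHC (AT5G51060), which is needed for root hair growth and stands among the root hair markers too, had 19.7, 16.9 and 11.7 CPM in hda9-1, against 29.4, 35.1 and 27.3 CPM in wild type (-0.93 ± 0.18). RBOHD (AT5G47910), the main oxidase of defence and stress signals, had 50.5, 63.9 and 49.7 CPM in hda9-1, against 74.1, 81.0 and 72.3 CPM in wild type (-0.47 ± 0.10). In these 3 genes no mutant sample reached a wild-type sample. RBOHE and RBOHA fell by 0.59 and 0.77, and 4 to 6 members were called as libraries were left out. Root marker sums were lower in the same libraries, as given above, and their part in this result was not tested.

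Thioredoxins and peroxiredoxins carry reducing power to target proteins and to peroxides. Of 35 tested, 9 were higher (25.7%, against 6.98% of all tested genes) and 2 lower. In the highest of 4 equal groups of genes by mean level, 19.1% were called higher, and in the shortest by exon length 3.05%. The part of level and length in this result was not tested. The 9 all encode proteins of plastids, but the plastid members among the 35 were not counted. Whether the increases were specific to plastid members was thus not tested. NTRC (AT2G41680), a reductase joined to a thioredoxin, had 141, 145 and 129 CPM in hda9-1, against 84.0, 101 and 97.3 CPM in wild type (0.56 ± 0.09, adjusted p = 0.0013). TRXM2 (AT4G03520) had 344, 351 and 302 CPM in hda9-1, against 204, 228 and 247 CPM in wild type (0.55 ± 0.10). In both, the lowest mutant sample was above the highest wild-type sample. TRXF2, TRXZ and TRXY2, further plastid thioredoxins, rose by 0.49, 0.74 and 0.51, the peroxiredoxins 2CPA, 2CPB and PRXIIE by 0.44, 0.44 and 0.42, and FTRA2, a subunit of ferredoxin-thioredoxin reductase, by 0.53. TRXH8 (-1.49 ± 0.29) and the mitochondrial TRXO2 (-0.62 ± 0.19) fell. Without hda9-1 replicate 2 or wild-type replicate 1 or 2, 5 members were called higher, and with the trend over exon length removed, 14 were.

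The ascorbate and glutathione cycle removes hydrogen peroxide, and 5 of its 30 tested genes rose and 5 fell. APX3 (AT4G35000), a peroxisomal ascorbate peroxidase, had 199.9, 189.8 and 179.7 CPM in hda9-1, against 134, 128 and 142 CPM in wild type (0.50 ± 0.08, adjusted p = 0.0014). TL29, GR2, DHAR3 and GPX1, whose products are known from plastids, rose by 0.37, 0.35, 0.31 and 0.30. MDAR3 (AT3G09940), a monodehydroascorbate reductase gene, had 6.41, 7.33 and 5.86 CPM in hda9-1, against 14.2, 14.3 and 14.5 CPM in wild type (-1.13 ± 0.25). DHAR1, which has a near copy in AT1G19550, fell by 0.68, APX5 by 0.86, GPX3 by 0.36, and VTC1, an enzyme of ascorbate synthesis, by 0.40. The number higher was 2 without wild-type replicate 1 and 3 without hda9-1 replicate 1, hda9-1 replicate 2 or wild-type replicate 2, and the number lower was 3 without hda9-1 replicate 3 or wild-type replicate 3.

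Catalases break down hydrogen peroxide in peroxisomes. CAT1 (AT1G20630) had 225, 208 and 174 CPM in hda9-1, against 131, 136 and 138 CPM in wild type (0.58 ± 0.11, adjusted p = 0.0029). CAT2 (AT4G35090) had 869.7, 884 and 539 CPM in hda9-1, against 493, 559.9 and 566 CPM in wild type (0.50 ± 0.15, adjusted p = 0.037), so hda9-1 replicate 3 lay within the wild-type range and the call was lost without 8 of the 12 libraries. No superoxide dismutase of the 12 genes in that list was called. Of 12 genes of alternative respiration, which lets mitochondria and plastids pass electrons to oxygen without proton pumping, AOX1A (AT3G22370), the main alternative oxidase, had 40.5, 54.1 and 55.5 CPM in hda9-1, against 26.1, 37.5 and 28.3 CPM in wild type (0.71 ± 0.14, adjusted p = 0.0055). Every mutant sample was above the wild-type samples, and AOX1A stayed called in every fit that dropped 1 library. The NAD(P)H dehydrogenases NDB2 and NDB1 fell by 0.31 and 0.32, and neither was called without hda9-1 replicate 1 or 3 or any 1 of the 3 wild-type replicates. NDB2 lost its call without 5 of the 12 libraries and NDB1 without 10. Among 10 mitochondrial stress genes 1 was called, NAC017 (0.31 ± 0.08), and among 24 nuclear genes of the respiratory chain 1, CI51 of complex I (0.32 ± 0.08). These are 10% and 4.17% of the 2 lists, against 6.98% of all tested genes called higher. NAC017 lost its call without hda9-1 replicate 1 or wild-type replicate 1 or 3, and 3 stress genes were called without hda9-1 replicate 1. CI51 lost its call without hda9-1 replicate 3 or wild-type replicate 1, and 2 respiratory chain genes were called higher without hda9-1 ABA replicate 2. Of 57 nuclear photosynthesis genes, 1 was higher, the antenna gene LHCA6 (0.57 ± 0.10), and 2 lower, LHCB2.1 (-0.51 ± 0.12) and LHCB2.2 (-0.38), with a median of -0.04. LHCA6 and LHCB2.1 stayed called in every fit that dropped 1 library, and LHCB2.2 did not without hda9-1 replicate 2 or 3 or wild-type replicate 1 or 3. The balance of the 57 genes was not stable: 4 were higher and 1 lower without hda9-1 replicate 3, 4 were lower without hda9-1 replicate 1, 3 were higher without hda9-1 ABA replicate 2, 5 were higher with the exon length trend removed, and 4 were higher by DESeq2.

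Glutathione transferases join glutathione to reactive compounds, and 8 of 31 tested were lower and 1 higher. GSTU17 (AT1G10370) had 1.88, 1.49 and 2.03 CPM in hda9-1, against 2.97, 4.94 and 4.00 CPM in wild type (-1.13 ± 0.19, adjusted p = 0.0017), and GSTU20 (AT1G78370) had 37.2, 41.5 and 39.9 CPM in hda9-1, against 55.2, 61.0 and 81.5 CPM in wild type (-0.74 ± 0.16). GSTU7 (AT2G29420) was higher by 0.63 ± 0.14. The wild-type samples of both GSTU17 and GSTU20 varied more than the mutant samples. The number lower was 2 without hda9-1 replicate 3 or wild-type replicate 3, and 3 without wild-type replicate 2.

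ABA-induced genes were measured here at their untreated level. Of 27, 5 were lower and 1 higher, with a median of -0.24. RAB18 (AT5G66400), a dehydrin gene, had 2.09, 1.54 and 1.69 CPM in hda9-1, against 4.88, 3.21 and 3.48 CPM in wild type (-1.13 ± 0.19, adjusted p = 0.0021). RD20 (AT2G33380), a caleosin gene, had 0.703, 0.253 and 0.763 CPM in hda9-1, against 2.396, 1.64 and 2.27 CPM in wild type (-1.85 ± 0.33), and RD29B (AT5G52300) had 0.351, 0.230 and 0.502 CPM in hda9-1, against 1.15, 1.22 and 0.692 CPM in wild type (-1.48 ± 0.28). All 3 were separated but low in both genotypes. RD22 and ERD10 fell by 0.54 and 0.42, and the transcription factor gene HB7 rose by 0.37. The list gave 4 to 6 decreases as libraries were left out, and HB7 lost its call without hda9-1 replicate 1 or 3 or wild-type replicate 2 or 3.

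Of the ABA pathway itself, few genes were called. Among 10 PYR/PYL receptors, PYL8 (AT5G53160) had 196, 187 and 191 CPM in hda9-1, against 118, 152 and 148 CPM in wild type (0.46 ± 0.13, adjusted p = 0.034), and PYR1 (AT4G17870) fell by 0.57 ± 0.15. Among 9 clade A PP2C phosphatases, which switch the pathway off, HAI3 was called at -2.52 ± 0.71 with at most 0.346 CPM in any sample, a call lost without any 1 of the 3 hda9-1 replicates or wild-type replicate 3, by limma-voom and with the 6 untreated samples alone. Among 14 genes of ABA metabolism, AAO3, the last enzyme of synthesis, rose by 0.32 ± 0.08 and CYP707A1, an enzyme of breakdown, fell by 0.52 ± 0.14, while CYP707A2, at 0.66 ± 0.32, was not called. The shares of this list called higher and lower, 7.14% each, are near the 6.98% and 6.57% of all tested genes. The PYL8 call was lost without any 1 of the 6 untreated libraries, those of PYR1 and CYP707A1 without 4 of the libraries each, and that of AAO3 without hda9-1 replicate 2 or wild-type replicate 2 or 3. Of 7 tested seed maturation genes 2 were lower, DOG1 (AT5G45830), the main seed dormancy gene, with 1.69, 1.15 and 1.39 CPM in hda9-1, against 4.09, 3.78 and 3.09 CPM in wild type (-1.37 ± 0.23, adjusted p = 0.0019), and ABI5 (-0.75 ± 0.24), which was lost without 10 of the 12 libraries.

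Of 24 iron-deficiency genes 5 were called lower and none higher, 22 had a fold change below 0, and the median was -0.64. F6H1 (AT3G13610), which makes the iron-mobilising coumarin scopoletin, had 24.5, 32.9 and 16.9 CPM in hda9-1, against 67.8, 71.1 and 61.0 CPM in wild type (-1.43 ± 0.20, adjusted p = 0.0011). FIT (AT2G28160), the central transcription factor of root iron uptake, had 8.74, 9.93 and 8.17 CPM in hda9-1, against 17.7, 16.1 and 14.5 CPM in wild type (-0.85 ± 0.23). Both were lower in every mutant sample, and BTSL2, FRO3 and ABCG37 were the other 3. The number called was 1 without wild-type replicate 2, 2 without hda9-1 replicate 1, 3 without wild-type replicate 1 and 9 without hda9-1 replicate 3. FER3, a plastid ferritin gene for iron storage, rose by 0.80 ± 0.17, and FER2, the seed ferritin, fell by 0.83 ± 0.26, a call lost without 9 of the libraries.

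All 8 root hair markers were below 0 in fold change and did not overlap between the genotypes, with a median of -1.50, but RBOHC alone of the 8 was called. RHS12, named above among the largest decreases, was not in this list. EXPA7 (AT1G12560), a root hair expansin, was at -1.70 ± 0.53 with an adjusted p of 0.060. hda9-1 replicate 3 was the lowest sample of the root hair sum and hda9-1 replicate 1 the highest of the mutant samples, and without hda9-1 replicate 1, 7 of the 8 were called. With all libraries, limma-voom called 7 of the 8 lower and DESeq2 4. Of 13 endodermis and root meristem markers 3 were lower, EIR1 (-0.49), MYB36 (-0.72) and CASP2 (-0.60). None was called without hda9-1 replicate 3, and 1 was without hda9-1 replicate 2, wild-type replicate 1 or 2 or ABA-treated wild-type replicate 1. Of 13 nitrate genes 1 was called (7.69%), near the 6.57% of all tested genes called lower. The nitrate transporter gene NRT2.1 (AT1G08090) had 0.537, 0.207 and 0.0803 CPM in hda9-1, against 1.23, 1.39 and 2.16 CPM in wild type (-2.52 ± 0.51, adjusted p = 0.0054), a call that stayed in every fit that dropped 1 library. Of 12 sulfur genes, 8 of which had a fold change above 0, the sulfate transporter gene SULTR1;2 was the 1 called (-0.60), and this was lost without 6 of the 12 libraries.

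**Figure D3:**
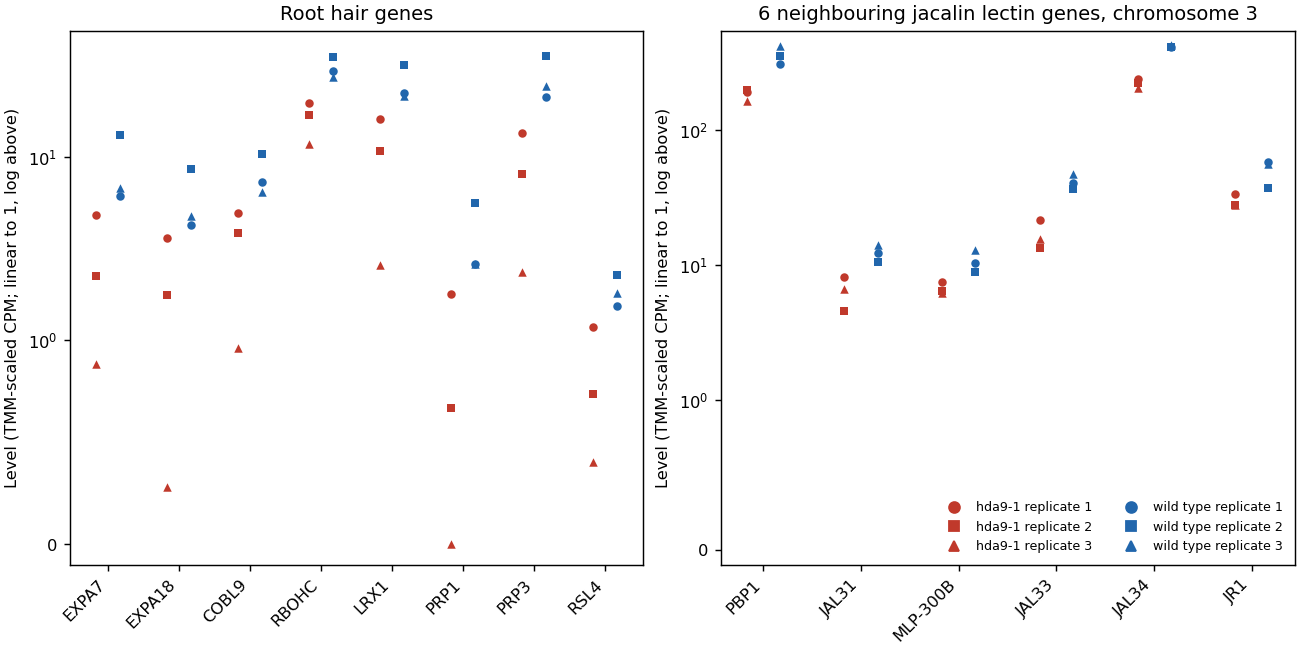
Levels (CPM, axis linear to 1 and logarithmic above) of 8 root hair markers and 6 jacalin-related lectin genes in each sample, hda9-1 (red) to the left of wild type for each gene. The mutant points lie below the wild-type points for all 14 genes, and hda9-1 replicate 3 is the lowest sample for each root hair gene.

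In the lists not yet described, calls were few. Of 16 flavonoid genes TTG1, a regulator of pigment and hair fate, rose by 0.40 ± 0.07 and F3H and FLS1 fell by 0.61 and 0.96. DREB2A, a drought and heat factor, rose by 0.77 ± 0.16 and the calmodulin-like TCH2 fell by 0.53 among 17 touch and early stress genes. KRP1, a cell cycle inhibitor, was the 1 called of 20 cell cycle genes (-0.61), and KAT1, a guard cell potassium channel, the 1 called of 12 stomatal genes (-0.46). For these 2 lists the shares called lower, 5% and 8.33%, are near the 6.57% of all tested genes. TTG1 and DREB2A stayed called in every fit that dropped 1 library. Among the decreases, F3H, TCH2, KRP1 and KAT1 each lost their call without 4 of the 12 libraries and FLS1 without 8, and hda9-1 replicate 3 was among these for all 5. None was called among 21 heat shock, 5 floral organ, 9 phosphate starvation and 7 triterpene genes by edgeR. At an unadjusted p below 0.05 there were 2, 1, 1 and 3 members of these lists, and DESeq2 called 1, 0, 0 and 1. In the last of these MRN1 (AT5G42600) had 30 counts in hda9-1 and 2 in wild type, a ratio of 15.8 with a 95% counting interval of 4.01 to 137. It was not called (adjusted p = 0.108), and its fitted log2 fold change ran between 2.46 and 6.35 as each library was left out.

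**Figure D4:**
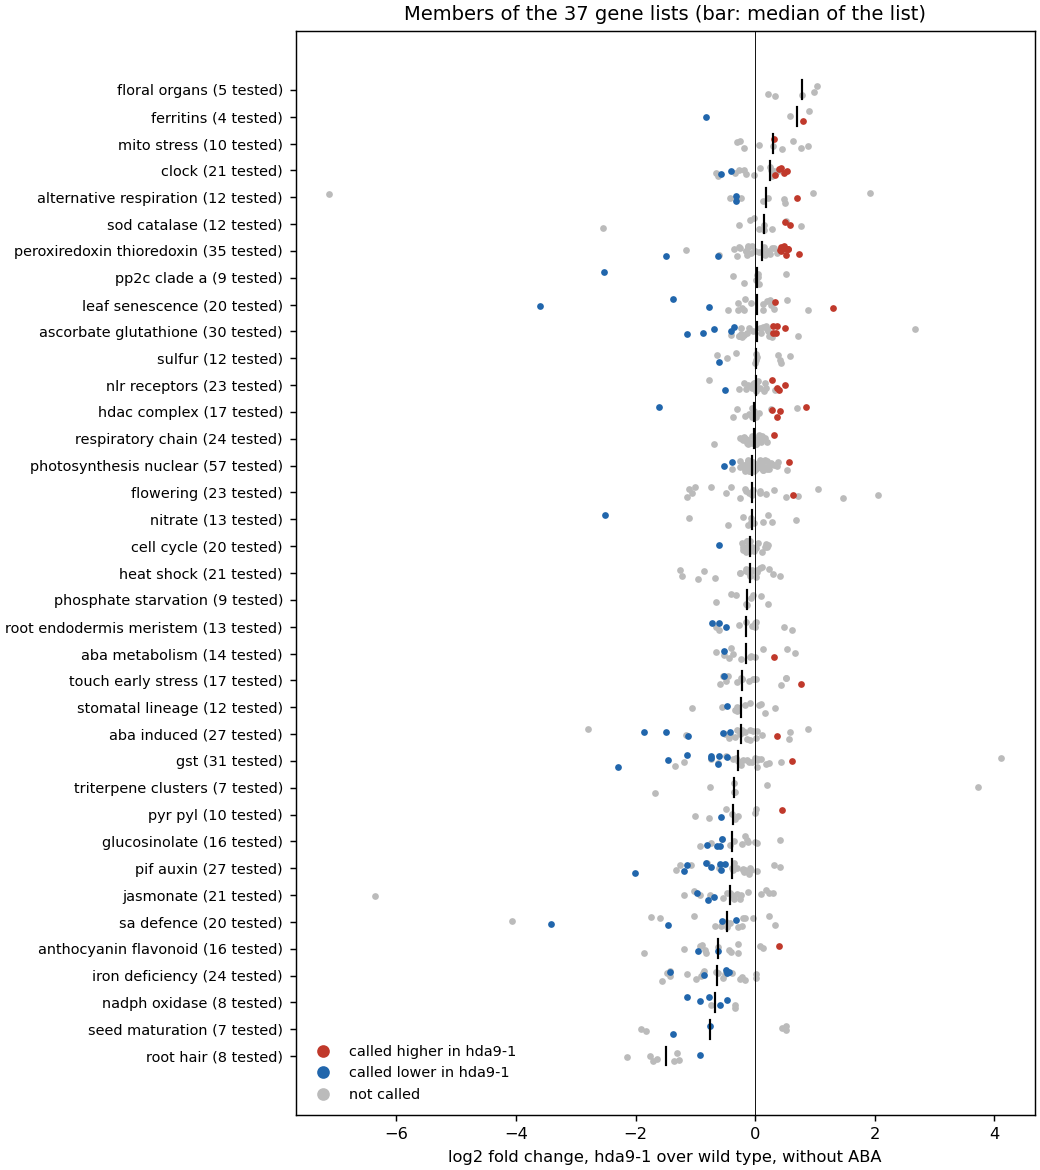
Log2 fold changes (hda9-1 over wild type, without ABA) of the tested members of 37 gene lists, ordered by their median, with called members in red (higher) or blue (lower) and the others in grey. Root hair, NADPH oxidase, iron and auxin lists lie mostly below 0, and the clock list has its median above 0.

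The shares called differed with exon length and with level. Genes called higher had a median exon length of 2155 bases and genes called lower 1720, against 1766 over all tested genes. From the shortest to the longest of 4 equal groups of genes, 3.05%, 5.63%, 7.37% and 12% were called higher and 6.37%, 7.52%, 7.09% and 5.27% lower. From the lowest to the highest of 4 equal groups by mean level, 0.879%, 1.47%, 6.52% and 19.1% were called higher. In the same order 5.37%, 8.83%, 6.9% and 5.16% were called lower. Changes of 2-fold or more were most frequent at low level in both directions, with 31, 3, 1 and 1 genes higher. The genes lower by 2-fold or more numbered 222, 84, 14 and 7. The called share was alike on the 5 chromosomes, at 13.3% to 14.1%.

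The 6 ABA-treated samples, none of them shared with the comparison above, gave a second measure of the same genotypes. After ABA, 2660 genes were called (12.7%), 1570 higher (7.5%) and 1090 lower (5.21%). Of the genes called without ABA, 644 were also called higher and 451 lower after ABA, which is 38.6% of the calls without ABA and 41.2% of those after ABA. The sign was the same for 91.9% of the genes called without ABA, against 67.2% of all tested genes, and the median change after ABA was 0.28 for genes called higher without ABA and -0.36 for those called lower. Without ABA these medians were 0.41 and -0.64. The genes were picked by their calls without ABA, which favours larger changes there, so the smaller medians after ABA are no measure of an ABA effect. HDA9 was -1.68 after ABA, IAA29 -1.43, OPR3 -0.95, HTA4 -2.70 and AOX1A 0.57, all called, whereas CAT2 was 0.02, AT4G12490 0.03 and GSTF6 0.12 and were not. CDT1 (AT1G52827) was the 1 gene called in opposite directions, at -1.02 ± 0.27 without ABA and 1.04 ± 0.24 after it, with an adjusted p of 0.137 for the difference.

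**Figure D5:**
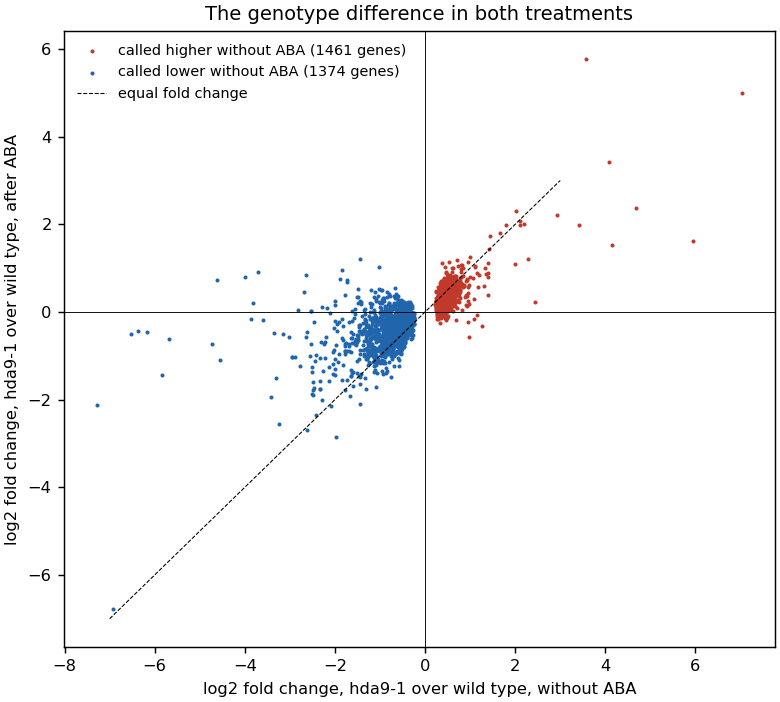
Log2 fold change of hda9-1 over wild type after ABA (vertical) against that without ABA (horizontal) for the 2835 genes called without ABA. Most points, 91.9%, share their sign, and many lie nearer to 0 after ABA. Picking genes by their call without ABA favours larger changes on that axis, so this is no measure of an ABA effect.

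The difference between the genotype effects without and after ABA was tested for every gene. None was called by edgeR, with 2467 genes at an unadjusted p below 0.05 and a smallest adjusted p of 0.0564, whereas DESeq2 called 129. Without hda9-1 ABA replicate 2, edgeR called 1612. A gene called in 1 treatment and not in the other is therefore not shown to differ between them.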

How the data were processed

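The labels' protocols describe poly(A) RNA libraries from whole seedlings, made with a directional kit. The authors deposited whole-number counts per gene for 12 samples in 1 table. The submitters' processing notes name Bowtie2, Salmon, limma 3.56 and TAIR10 without their roles. Whether counting used strand is not given in the sources used here, so overlapping and antisense genes cannot be told apart. Each column was matched to a sample by its name and title, and 0 columns were left unused.

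Genes were kept by edgeR's filterByExpr (minimum count 10, minimum total 15), which left 20924 genes with 99.99% of counts. Counts were scaled by TMM and fitted with edgeR 4.0.16 (robust quasi-likelihood, 4 group means over all 12 samples, R 4.3.3). Calls required an adjusted p (Benjamini-Hochberg, over all tested genes) below 0.05. CPM values are TMM-scaled, and an SE is the log2 fold change divided by the square root of its F. Intervals and floors cover counting error only. Near copies (95% identity over 200 bases) were found with blastn 2.17.0. DESeq2 1.42.0, limma 3.58.1 (voom), other scalings and filters, a replicate block and leaving out each library were alternatives. The fit was tested on simulated data.

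Genes named were HDA9, the 12 largest changes in each direction with at least 5 CPM and no overlap, runs of at least 3 neighbours, and the leading called members of 37 lists. Members named beyond that rule were chosen after their values were seen. The comparison, its members and the lists were chosen with earlier results of these data known.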

Additional observations from a re-analysis of the deposited data

How the results depend on the processing

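HDA9 stayed lower and called throughout, at -1.67 to -1.51 when each library was left out. Leaving out 1 library gave 1382 to 3808 calls without ABA, 747 to 2101 higher and 602 to 1707 lower, with 20 to 47 higher and 173 to 468 lower by 2-fold or more. It gave 1075 to 4640 calls after ABA and 0 to 1612 for the difference of the genotype effects. At an adjusted p below 0.01, 986 genes were called without ABA (577 higher, 409 lower, 10 and 126 of them by 2-fold or more) and 867 after ABA. DESeq2 gave 60 genes higher by 2-fold or more and 129 differences between treatments. That difference was called for 1 gene with upper-quartile factors, with library size alone and with no filter, and for 4 with the exon length trend removed. The causes of these shifts were not tested, apart from the stricter threshold and the fewer samples that some settings have by construction. No gene named by the rule given above changed direction. Members named beyond that rule were not checked for a change of direction.

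The replicate block called 2539 genes, 1295 higher and 1244 lower. Deviations of same-numbered samples correlated at 0.016, 0.067 and -0.034, so the numbers were not taken to pair the samples. Depth of 43977412 counts or more limits mostly genes under 1 CPM, which made up 10 of the 36 increases and 58 of the 327 decreases of 2-fold or more.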
